A study of Mus musculus with 8 samples.

Results

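The 10 genes described here encode sensors of viral or misplaced nucleic acids and the adaptors that pass their signal on, in mouse splenic CD8+ T cells treated with DADA or DMSO. They were taken from the deposited expression table by gene symbol: *Ifih1*, *Dhx58*, *Mavs*, *Zbp1*, *Eif2ak2*, *Adar* and *Tlr7* by 1 symbol each, and RIG-I, STING and cGAS under whichever symbol the table used, which was *Rigi*, *Sting1* and *Cgas*. All 10 were found among its 22520 genes and assembled transcripts. The cells had been isolated from spleen by magnetic negative selection. In both groups they were stimulated for 6 days through the T cell receptor and CD28, with antibodies and in the presence of IL-2. DADA (diisopropylamine dichloroacetate, an inhibitor of pyruvate dehydrogenase kinase) was present at 40 µM from day 3, the control cultures received the same volume of the solvent DMSO, and RNA was taken on day 6 in both groups. Each group had 4 bulk RNA-seq libraries, which the study calls biological replicates. Both groups were otherwise alike by their labels, which give no strain or age and carry the words control and model under genotype although the groups differ in treatment, and which do not say whether the 4 cultures came from separate mice, so the spread between libraries, and every p-value, may reflect cultures rather than animals.

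Cells detect foreign or misplaced nucleic acid with a small set of proteins. RIG-I and MDA5, with the related LGP2, read RNA in the cytosol and signal through MAVS on mitochondria, whereas cGAS reads DNA and makes the messenger cGAMP, which is received by STING. TLR7 reads RNA inside endosomes, and ZBP1, PKR and ADAR1 bind duplex or left-handed nucleic acid and act on cell death, translation and RNA editing. Many of these genes are themselves known to be induced by interferon, through factors such as STAT2 and IRF9, which bind the interferon-stimulated response element.

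Expression is given as FPKM, in which the fragments of a gene are divided by its transcript length and by the size of the library, a value per length that allows levels of different genes to be set side by side. The paper gives a minimum data volume per sample, but the exact read depth of each library is unknown, since no read counts could be recovered from these values. Replicate libraries were close to each other, with a median coefficient of variation of 3.97% with DMSO and 3.84% with DADA over 7859 genes, and with Pearson correlations across genes of 0.993 to 0.995 within a group and 0.958 to 0.961 between groups. Fold changes are differences of log2(FPKM + 1), DADA minus DMSO, which understate the change of genes with low FPKM. They were tested with limma over 10666 genes, those with 4 or more of the 8 libraries at or above 1 FPKM, and a gene is called changed at a Benjamini-Hochberg adjusted p under 0.05. The cells carried the RNA of CD8 T cells, as *Cd8a* lay between 124 and 129 FPKM with DMSO and between 149 and 162 FPKM with DADA, and *Cd4* stayed at or under 0.411 FPKM in every library.

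Expression of most sensors rose with DADA, whereas the adaptors moved little. *Rigi*, *Ifih1*, *Dhx58*, *Zbp1*, *Eif2ak2*, *Adar* and *Tlr7* rose by at least 1 on the log2 scale, *Sting1* rose by 0.12, and *Mavs* and *Cgas* fell. In all, 8 of the 10 genes were called higher and 2 lower, in an experiment in which 66.2% of all genes tested were called, 30.9% as higher and 35.3% as lower. A call with a log2 fold change of at least 1 was less common, at 3.56% of genes tested, and 7 of the 10 genes had one. The DMSO and DADA libraries did not overlap for any of the 10 genes, which was also the case for 60.6% of all genes tested. For each of the 10, the two-sided exact permutation test gave p = 0.0286, the smallest that 4 against 4 libraries allow. The median log2 fold change was 1.37 over the 10 genes and -0.02 over all genes tested. All 10 passed the filter on low values, but *Tlr7* passed it through the DADA libraries alone, so its call is no support for the group. Of the other 9 genes, 7 were called higher and 2 lower, 6 had a log2 fold change of at least 1, and the median was 1.57. In bulk RNA, a change in the share of expressing cells and a change in RNA per cell cannot be told apart.

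**Figure D1:**
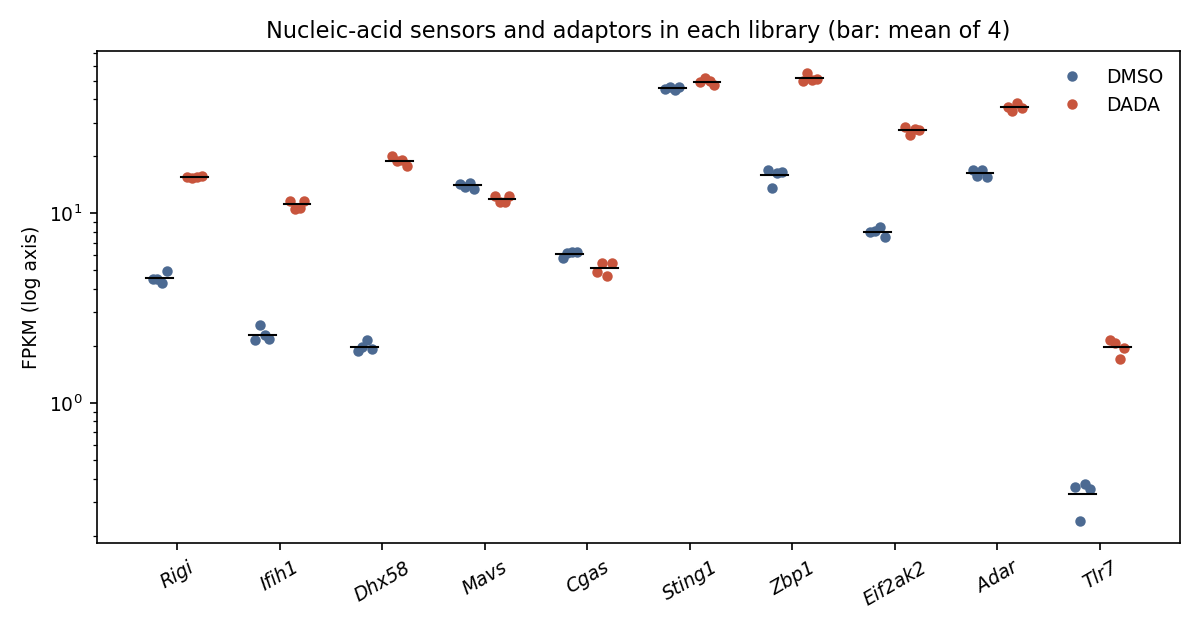
FPKM of the 10 genes (log axis) in each DMSO library (blue points) and each DADA library (red points), with bars at the means of 4. The groups lie far apart for 7 genes, and next to each other for *Mavs*, *Cgas* and *Sting1*, whose closest libraries in *Sting1* were 1.01 FPKM apart.

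Promoter sequences were available for 6 of the 10 genes and are shown for those with a match and for *Mavs*, as an adaptor without one. They are RefSeq windows of 300 bases on the build GRCm38.p6, with 250 bases before and 50 bases from the annotated start, and were searched on both strands for the core of the interferon-stimulated response element, that is GAAA, 2 bases of any kind and GAAA again, and for the gamma-activated site TTCNNNGAA. A repeat with 1 base between, GAAANGAAA, was added after the windows had been read. In the lines that follow, written 5′ to 3′ in the direction of transcription, capitals mark the GAAA repeats, which read as TTTC where the match is on the other strand. The windows are those of *Rigi* (chr4:40239776-40240075, minus strand), *Ifih1* (chr2:62646206-62646505, minus strand), *Eif2ak2* (chr17:78882523-78882822, minus strand), *Adar* (chr3:89730468-89730767, plus strand) and *Mavs* (chr2:131233813-131234112, plus strand).
Rigi: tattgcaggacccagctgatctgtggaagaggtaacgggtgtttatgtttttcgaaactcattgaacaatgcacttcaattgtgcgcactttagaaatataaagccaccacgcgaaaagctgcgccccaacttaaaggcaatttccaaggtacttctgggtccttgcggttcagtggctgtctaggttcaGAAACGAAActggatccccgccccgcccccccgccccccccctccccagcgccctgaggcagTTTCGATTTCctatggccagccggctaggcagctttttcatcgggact
Ifih1: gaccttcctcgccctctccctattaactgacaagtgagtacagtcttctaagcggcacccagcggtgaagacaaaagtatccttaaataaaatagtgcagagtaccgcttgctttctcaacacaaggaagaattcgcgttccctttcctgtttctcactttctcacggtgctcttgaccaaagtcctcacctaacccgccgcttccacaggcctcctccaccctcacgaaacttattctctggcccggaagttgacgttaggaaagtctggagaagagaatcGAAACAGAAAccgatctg
Eif2ak2: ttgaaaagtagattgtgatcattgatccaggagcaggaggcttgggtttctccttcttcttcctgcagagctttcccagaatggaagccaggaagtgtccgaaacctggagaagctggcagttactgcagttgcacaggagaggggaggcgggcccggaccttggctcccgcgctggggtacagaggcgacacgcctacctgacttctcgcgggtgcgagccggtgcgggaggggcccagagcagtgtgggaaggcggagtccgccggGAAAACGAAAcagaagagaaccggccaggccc
Adar: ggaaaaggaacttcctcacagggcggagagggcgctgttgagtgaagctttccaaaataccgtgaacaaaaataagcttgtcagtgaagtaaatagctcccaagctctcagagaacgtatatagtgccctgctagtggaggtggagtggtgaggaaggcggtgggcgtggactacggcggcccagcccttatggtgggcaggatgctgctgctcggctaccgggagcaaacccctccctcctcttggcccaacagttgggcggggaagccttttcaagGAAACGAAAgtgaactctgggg
Mavs: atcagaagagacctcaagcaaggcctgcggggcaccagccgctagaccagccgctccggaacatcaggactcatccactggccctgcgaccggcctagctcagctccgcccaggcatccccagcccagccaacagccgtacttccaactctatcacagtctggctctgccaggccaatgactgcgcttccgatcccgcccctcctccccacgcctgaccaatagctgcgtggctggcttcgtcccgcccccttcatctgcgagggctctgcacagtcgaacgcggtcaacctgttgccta

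The response element core was present in 3 of the 6 genes. Counted from the annotated start, its first base lay at 3 in *Rigi*, at 33 in *Ifih1* and at 19 in *Eif2ak2*. The repeat with 1 base between was at -60 in *Rigi* and at 29 in 1 of the 3 windows of *Adar*. The core was not found in any of the 3 *Adar* windows, and neither spacing was found in the windows of *Mavs* and *Cgas*. As the second spacing was chosen after these windows had been seen, no count of genes is given for it. Of 32851 mouse promoter windows of the same length, 3.44% held the core, 3.17% the repeat with 1 base between and 6.27% either of them, shares that are per window and not per gene. The gamma-activated site was found at -178 in *Eif2ak2* and at 23 in the same *Adar* window, where it shares bases with the capitals, and in 8.3% of all windows. These are matches of letters and carry no measurement of a bound factor, and a window without a match lacks only these letters. The annotated start in the windows of *Rigi*, *Ifih1* and *Mavs* also opens a GENCODE M21 transcript, whereas that of the printed *Eif2ak2* and *Adar* windows does not.

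RIG-I, the product of *Rigi* (ENSMUSG00000040296), recognises short RNA with a terminal phosphate group. In the DMSO libraries *Rigi* had 4.52, 4.48, 4.28 and 4.98 FPKM, compared with 15.6, 15.4, 15.6 and 15.7 FPKM in those with DADA. Every DADA library was well above every DMSO library, and the DADA libraries hardly differed from each other. The mean rose from 4.57 ± 0.294 to 15.6 ± 0.141 FPKM (SD, n = 4 each), a ratio of 3.41 (SE 0.111). Its log2 fold change, 1.57 (95% interval 1.48 to 1.67), had an adjusted p of 8.59e-10 in limma.

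*Ifih1* (ENSMUSG00000026896) encodes MDA5, which recognises long RNA duplexes. It was expressed at 2.15, 2.57, 2.28 and 2.18 FPKM with DMSO, and at 11.6, 10.55, 10.7 and 11.7 FPKM with DADA. No DMSO library came near the DADA libraries, and DMSO 2 was the highest of its group. From 2.29 ± 0.193, the mean reached 11.1 ± 0.573 FPKM (SD, n = 4 each), which is 4.85-fold (SE 0.239) and 1.88 on the log2 scale (limma, SE 0.0556, adjusted p = 1.41e-09).

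*Dhx58* (ENSMUSG00000017830), whose product LGP2 lacks the signalling domain of RIG-I and MDA5 and modulates both, had the largest change of the 10 genes. Its FPKM was 1.88, 1.96, 2.14 and 1.92 with DMSO, against 20.04, 18.85, 19.1 and 17.8 with DADA. The DMSO libraries were uniformly low and the DADA libraries uniformly high. The means of 1.98 ± 0.114 and 18.9 ± 0.941 FPKM (SD, n = 4 each) gave a ratio of 9.58 (SE 0.364) and a log2 fold change of 2.74 (95% interval 2.64 to 2.85; limma, adjusted p = 4.39e-11). Of the 10666 genes tested, 39 had a larger log2 fold change than *Dhx58*, 99 a larger one than *Ifih1* and 147 a larger one than *Rigi*. The antisense gene *Dhx58os* shares 141 exon bases with *Dhx58* in the GENCODE M21 annotation, and reads of the 2 could not be separated here because the strand setting of the counting is not given.

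The adaptor MAVS, through which RIG-I and MDA5 both signal, went the other way. *Mavs* (ENSMUSG00000037523) was measured at 14.3, 13.8, 14.5 and 13.5 FPKM with DMSO and at 12.3, 11.4, 11.5 and 12.3 FPKM with DADA. The DADA libraries were all lower, by a margin similar to the spread within a group. Between the means, 14.0 ± 0.469 and 11.9 ± 0.498 FPKM (SD, n = 4 each), the change was -15.2%, or -0.22 on the log2 scale (95% interval -0.31 to -0.13; limma, adjusted p = 6.63e-04).

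The proportion of sensor to adaptor within a library was compared as the ratio of their values. FPKM of *Rigi* relative to *Mavs* was 0.296 to 0.369 in the DMSO libraries and 1.26 to 1.36 in the DADA libraries, with means of 0.327 ± 0.0311 and 1.31 ± 0.0468 (SD, n = 4 each). *Ifih1* relative to *Mavs* went from 0.164 ± 0.0159 to 0.936 ± 0.0108 (SD, n = 4 each). By FPKM, *Rigi* was below *Mavs* in every DMSO library and above it in every DADA library, whereas *Ifih1* approached *Mavs* without passing it. *Dhx58* also gained on *Ifih1*, from a ratio of 0.866 ± 0.0744 to one of 1.71 ± 0.125 (SD, n = 4 each). On the log2 scale of FPKM + 1, the ratios differed between the groups by 1.796 for *Rigi* to *Mavs*, by 2.10 for *Ifih1* to *Mavs* and by 0.86 for *Dhx58* to *Ifih1*. For *Dhx58* to *Ifih1*, both of which rose, the two-sided exact permutation test gave p = 0.0286, also after adjustment over the 4 ratios compared. The ratios to *Mavs* gave the same p, which adds nothing to the single genes, since a sensor that rose and an adaptor that fell, each without overlap, cannot overlap in their ratio.

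cGAS, which is activated by DNA in the cytosol, was the other gene with lower expression. *Cgas* (ENSMUSG00000032344) stood at 5.79, 6.14, 6.23 and 6.21 FPKM with DMSO and at 4.91, 5.49, 4.68 and 5.44 FPKM with DADA. DADA 2 and DADA 4 came close to DMSO 1, the lowest control, without reaching it. The mean fell from 6.09 ± 0.209 to 5.13 ± 0.397 FPKM (SD, n = 4 each), a change of -15.8% and a log2 fold change of -0.21 (95% interval -0.33 to -0.09; limma, adjusted p = 0.00592).

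STING, the receptor of cGAMP on the endoplasmic reticulum, was the most abundant transcript of the set in control cells. *Sting1* (ENSMUSG00000024349) had 44.9, 46.1, 44.6 and 46.2 FPKM with DMSO and 48.9, 51.6, 49.8 and 47.2 FPKM with DADA. The groups were next to each other, and DADA 4 was just above the highest DMSO library. The increase from 45.5 ± 0.810 to 49.4 ± 1.804 FPKM (SD, n = 4 each) was 8.62%, with a log2 fold change of 0.12 (95% interval 0.05 to 0.18; limma, adjusted p = 0.00616). Relative to *Sting1*, *Cgas* fell from 0.134 ± 0.00443 to 0.104 ± 0.00896 (SD, n = 4 each). The difference of this log2 ratio was -0.33, and here too the separation of the groups follows from that of the 2 genes.

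**Figure D2:**
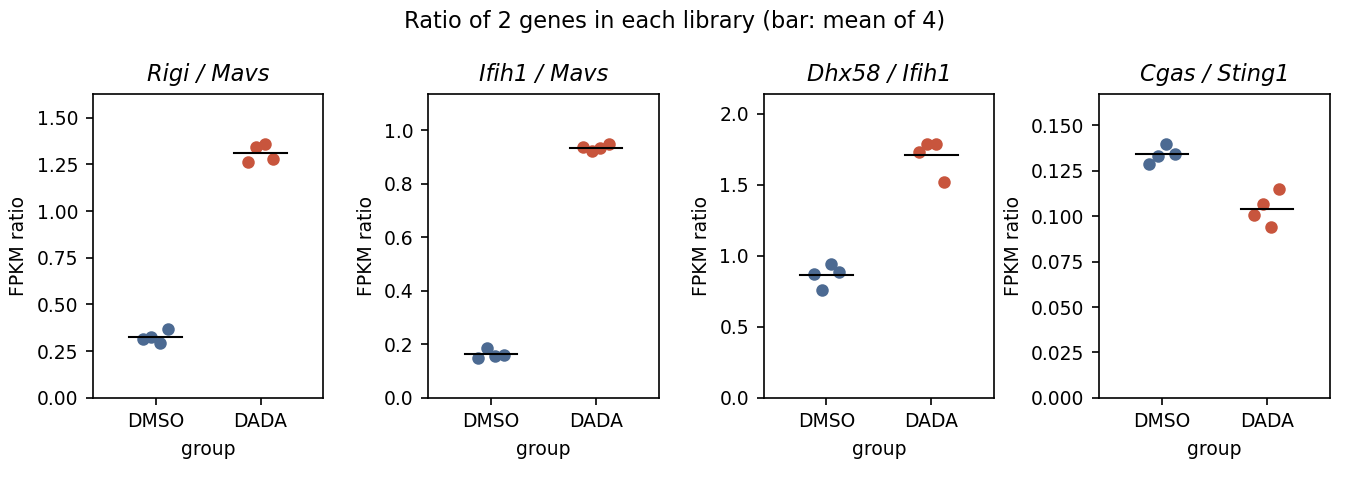
Ratio of the FPKM of 2 genes in each DMSO library (blue) and DADA library (red), with bars at the means of 4 and every axis starting at 0. *Rigi* to *Mavs* passes from 0.327 to 1.31, *Ifih1* to *Mavs* from 0.164 to 0.936 and *Dhx58* to *Ifih1* from 0.866 to 1.71, whereas *Cgas* to *Sting1* goes from 0.134 to 0.104.

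ZBP1 binds left-handed nucleic acid and can start necroptosis through RIPK3. *Zbp1* (ENSMUSG00000027514) was at 16.9, 13.6, 16.3 and 16.6 FPKM with DMSO and at 49.8, 54.7, 50.2 and 51.2 FPKM with DADA. The control library DMSO 2 was lower than the other 3, and all DADA libraries were far above all of them. The mean went from 15.8 ± 1.52 to 51.5 ± 2.22 FPKM (SD, n = 4 each), a ratio of 3.25 (SE 0.171) and a log2 fold change of 1.65 (limma, SE 0.0626, adjusted p = 9.54e-09).

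PKR, encoded by *Eif2ak2* (ENSMUSG00000024079), is a kinase that is switched on by duplex RNA and phosphorylates the translation factor eIF2α. Its gene was expressed at 7.97, 8.03, 8.46 and 7.52 FPKM with DMSO, and at 28.5, 25.7, 27.7 and 27.4 FPKM with DADA. Libraries within a group were alike and the groups were widely separated. With means of 7.99 ± 0.384 and 27.3 ± 1.18 FPKM (SD, n = 4 each), *Eif2ak2* was 3.42-fold (SE 0.1104) higher in DADA-treated cells, or 1.66 on the log2 scale (limma, SE 0.0430, adjusted p = 5.40e-10). *Eif2ak2* and *Cgas* share 221 and 201 exon bases with genes annotated on the opposite strand, for which no expression value was found.

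*Adar* (ENSMUSG00000027951) encodes ADAR1, which edits adenosine to inosine in duplex RNA and by this keeps the cell's own RNA from activating MDA5, PKR and ZBP1. Its FPKM was 16.8, 15.7, 16.9 and 15.5 with DMSO and 36.3, 34.4, 37.9 and 35.9 with DADA. The groups were clearly apart. A change from 16.2 ± 0.745 to 36.1 ± 1.44 FPKM (SD, n = 4 each) corresponded to a ratio of 2.23 (SE 0.0678) and a log2 fold change of 1.11 (limma, SE 0.0401, adjusted p = 6.51e-09). *Adar* shares 1365 exon bases with *Chrnb2* on the opposite strand, and *Chrnb2* reached at most 1.31 FPKM in any library. As the table gives 1 value per gene, the constitutive and interferon-inducible isoforms of ADAR1 could not be told apart.

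TLR7, the endosomal receptor for uridine-rich RNA that is best known from plasmacytoid dendritic cells and B cells, was the least abundant. *Tlr7* (ENSMUSG00000044583) was at 0.360, 0.239, 0.373 and 0.352 FPKM with DMSO, and at 2.15, 2.07, 1.71 and 1.95 FPKM with DADA. All DMSO libraries were under 1 FPKM and all DADA libraries above it. The ratio of the means, 0.331 ± 0.0618 and 1.97 ± 0.191 FPKM (SD, n = 4 each), was 5.95 (SE 0.626). At this low level the log2 fold change depended on the constant added, being 1.16 with 1 FPKM added and 2.27 with 0.1 FPKM added, and it was 0.85 after quantile scaling of the libraries.

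Markers of the cells that usually carry TLR7 were examined in the same libraries. Of 6 B cell genes in the table, the defining *Pax5* was listed at 0 in every library and 5 stayed under 1 FPKM, and their summed level was 2.59 to 3.56 FPKM with DMSO and 2.36 to 3.09 FPKM with DADA, nearly all of it *Cd79b*. Of 5 genes of plasmacytoid dendritic cells, *Siglech* was at most 0.0329 FPKM with DMSO and at 0 with DADA. Their sum was higher with DADA, at 93.9 to 102 against 65.5 to 68.5 FPKM, most of it from *Irf8*. Of the 3 tested, *Irf8* and *Tcf4* were called higher and *Pacsin1* was not called. *Tcf4* was at 0.637 to 1.45 FPKM with DMSO and 2.27 to 3.28 FPKM with DADA (log2 fold change 0.77, limma, adjusted p = 5.11e-04). Of 11 macrophage, monocyte and dendritic cell genes, *Csf1r*, *Adgre1* and *Clec9a* were at 0 throughout and 9 were under 1 FPKM in every library. The 2 that were tested moved in opposite directions, *Cd68* being at 3.43 to 3.90 FPKM with DMSO and 5.09 to 5.54 FPKM with DADA (log2 fold change 0.44, limma, adjusted p = 2.71e-05) and *Zbtb46* at 3.64 to 4.56 FPKM with DMSO and 1.72 to 2.36 FPKM with DADA (log2 fold change -0.77, limma, adjusted p = 1.43e-05). Below 1 FPKM, *Mpeg1*, *Xcr1*, *Flt3* and *Itgam* had higher values in every DADA library than in any DMSO library, with at most 0.215, 0.131, 0.0464 and 0.0407 FPKM. *Lyz2* went the other way, at up to 0.0567 FPKM with DMSO and at 0 with DADA, and *Cd14* overlapped between the groups. These values are near 0, and a lack of overlap was also the case for 60.6% of all genes tested. The sum of the 11 genes was 7.55 to 8.53 FPKM with DMSO and 7.62 to 7.92 FPKM with DADA. The summed level of 4 NK cell genes was 0.0236 to 0.163 FPKM with DMSO and 0.144 to 0.395 FPKM with DADA, and that of 4 CD4 T cell genes was 16.3 to 17.4 and 15.3 to 15.8 FPKM, mostly from *Zbtb7b*. Among them, *Klrb1c* was at most 0.0484 FPKM with DMSO and at least 0.144 FPKM with DADA. *Foxp3* was likewise higher in every DADA library, at 0.187 FPKM or more against at most 0.103 FPKM. For *Cd40lg* the groups nearly touched, with a lowest DMSO value of 0.15524 FPKM and a highest DADA value of 0.15507 FPKM. The 5 erythroid genes summed to at most 0.369 FPKM in any library. The summed level of the 6 CD8 T cell markers in the table was 862 to 881 FPKM with DMSO and 980 to 1013 FPKM with DADA, and all 6 were called higher. The part of these genes in the difference of *Tlr7* or of the other sensors was not tested.

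**Figure D3:**
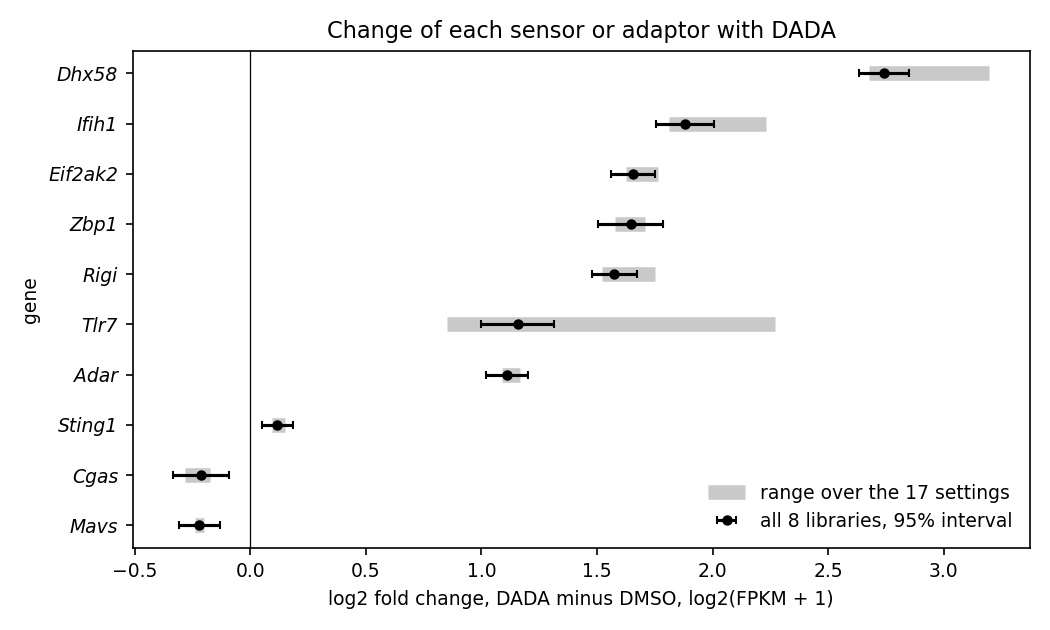
Log2 fold change of the 10 genes, DADA minus DMSO on the log2(FPKM + 1) scale, with its 95% interval (points and lines) and the range over all 17 settings of the analysis (grey, 16 settings for *Tlr7*). *Dhx58* is highest at 2.74, *Mavs* and *Cgas* lie left of 0 at -0.22 and -0.21, and *Tlr7* has the widest range, from 0.85 to 2.27.

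The order of the 10 transcripts by abundance changed with treatment. With DMSO it was *Sting1*, *Adar*, *Zbp1*, *Mavs*, *Eif2ak2*, *Cgas*, *Rigi*, *Ifih1*, *Dhx58* and *Tlr7*, where the libraries of *Adar* overlapped with those of *Zbp1*, and those of *Zbp1* with those of *Mavs*. With DADA it was *Zbp1*, *Sting1*, *Adar*, *Eif2ak2*, *Dhx58*, *Rigi*, *Mavs*, *Ifih1*, *Cgas* and *Tlr7*, where *Zbp1* overlapped with *Sting1* and *Mavs* with *Ifih1*. All other neighbours in the order were separate. *Dhx58*, the ninth with DMSO, was the fifth with DADA, and *Mavs* passed from the fourth to the seventh place. Summed over the 10 genes, FPKM was 112.5 to 116 with DMSO and 227 to 230.2 with DADA, and the share of *Sting1* in this sum went from 39.6% to 21.6%.

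Of 26 genes that regulate or relay the signal of RIG-I and MDA5, 23 were tested, 10 were called higher and 10 lower, and their median log2 fold change was -0.02. The called share of this list was 87.0%, and those of the 4 lists that follow were 71.4% to 83.3%, beside 66.2% of all genes tested, of which 30.9% were higher and 35.3% lower, so the presence of both directions is nothing particular to these lists. The largest increase was that of *Irf7*, the transcription factor that amplifies interferon production, from 1.15 ± 0.0913 to 29.5 ± 0.433 FPKM (SD, n = 4 each; log2 fold change 3.83, limma, adjusted p = 2.68e-12). *Trim25*, a ubiquitin ligase that promotes RIG-I signalling, followed with 13.7 ± 0.371 and 39.8 ± 0.980 FPKM (SD, n = 4 each; log2 fold change 1.47, limma, adjusted p = 1.05e-10), and *Tbkbp1*, an adaptor of the kinase TBK1, rose by 0.81 on the log2 scale (limma, adjusted p = 4.27e-07). The kinase and the factor directly below MAVS changed less, as *Tbk1* rose from 16.1 ± 0.936 to 18.8 ± 0.459 FPKM (log2 fold change 0.21, limma, adjusted p = 0.00120) and *Irf3* fell from 27.9 ± 0.623 to 24.6 ± 1.096 FPKM (log2 fold change -0.18, limma, adjusted p = 0.00138). The largest decreases were those of the RNA helicases *Dhx9* and *Ddx3x* and of the TBK1-related kinase *Ikbke*, with log2 fold changes of -0.43, -0.35 and -0.40 (limma, adjusted p at most 1.50e-05).

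Around cGAS and STING, 21 genes were tested, of which 5 were called higher and 10 lower, with a median log2 fold change of -0.09. The called share, 71.4%, was close to the 66.2% of all genes tested. *Samhd1*, a phosphohydrolase that lowers the supply of deoxynucleotides, rose from 61.9 ± 3.22 to 147.6 ± 4.13 FPKM (SD, n = 4 each; log2 fold change 1.24, limma, adjusted p = 1.51e-09). *Trim56*, a ubiquitin ligase linked to this pathway, rose by 0.76 and *Enpp1*, which degrades cGAMP, by 0.60 on the log2 scale (limma, adjusted p = 1.98e-07 and 0.0118). *Trex1*, the exonuclease that removes cytosolic DNA, varied between libraries, at 12.8 ± 3.47 and 18.03 ± 2.72 FPKM (SD, n = 4 each; log2 fold change 0.49, limma, adjusted p = 0.0343). Genes of DNA-binding proteins that fell were *Xrcc5* and *Xrcc6*, the Ku subunits of DNA end joining, with log2 fold changes of -0.79 and -0.75, and *Banf1*, which coats DNA and restrains cGAS, with -0.66 (limma, adjusted p at most 4.12e-06).

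In the endosomal pathway of TLR7, 15 of 20 genes were tested, 8 were called higher and 4 lower, and the median log2 fold change was 0.18. The related receptors *Tlr3*, *Tlr8* and *Tlr13* were listed at 0 in every library. *Unc93b1*, the chaperone that carries these receptors to endosomes, rose from 9.36 ± 0.487 to 13.7 ± 0.711 FPKM (SD, n = 4 each; log2 fold change 0.51, limma, adjusted p = 7.72e-06). The largest increases were those of the lysosomal transporter *Slc15a3*, the exonuclease *Pld3* and *Ticam1*, the adaptor of TLR3, with log2 fold changes of 1.496, 0.91 and 0.90 (limma, adjusted p at most 4.47e-07). *Rnaset2a* and *Rnaset2b*, lysosomal ribonucleases, and the kinase *Irak1* fell by 0.27, 0.24 and 0.15 on the log2 scale (limma, adjusted p at most 0.0408), and the first 2 of these are near-identical copies whose values are uncertain.

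Of 18 partners of ZBP1, PKR and ADAR1, 17 were tested, 9 were called higher and 4 lower, with a median log2 fold change of 0.24. *Ripk3*, the kinase that ZBP1 recruits, rose from 12.9 ± 0.315 to 19.1 ± 0.419 FPKM (SD, n = 4 each; log2 fold change 0.53, limma, adjusted p = 2.15e-07), and *Mlkl*, which permeabilises the membrane in necroptosis, from 13.4 ± 0.708 to 15.99 ± 0.592 FPKM (log2 fold change 0.24, limma, adjusted p = 7.49e-04). The largest increases were those of *Eif2ak3*, another kinase of eIF2α, of *Ppp1r15a*, a subunit of its phosphatase, and of *Adarb1*, a further RNA-editing enzyme, with log2 fold changes of 0.66, 0.60 and 0.60 (limma, adjusted p at most 3.87e-06). *Eif2s1*, which encodes the substrate of PKR, fell from 88.7 ± 1.98 to 69.5 ± 1.18 FPKM (log2 fold change -0.35, limma, adjusted p = 6.73e-07), as did *Tarbp2*, which encodes an RNA-binding protein (log2 fold change -0.16, limma, adjusted p = 0.00762).

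**Figure D4:**
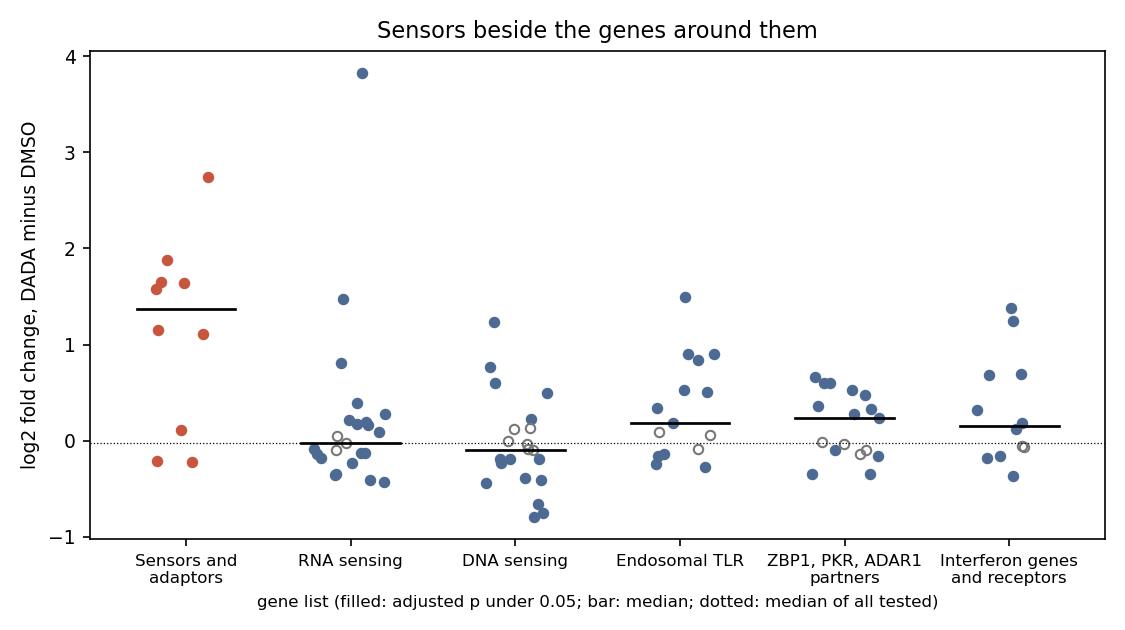
Log2 fold change, DADA minus DMSO on the log2(FPKM + 1) scale, of the 10 sensors and adaptors (red) and of the tested genes of 5 surrounding lists (filled where the adjusted p is under 0.05, open otherwise), with bars at the medians and a dotted line at the median of all genes tested. The median of the sensors and adaptors is 1.37, and those of the lists lie between -0.09 and 0.24.

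The interferon genes and the signalling of their receptors formed the last list, with 12 of 31 genes tested, 7 called higher and 3 lower, and a median log2 fold change of 0.15. *Stat2* rose from 11.9 ± 0.162 to 32.4 ± 0.576 FPKM and *Irf9* from 11.98 ± 0.742 to 29.8 ± 0.883 FPKM (SD, n = 4 each), with log2 fold changes of 1.38 and 1.25 (limma, adjusted p = 7.74e-11 and 5.22e-09). *Ifng*, the type II interferon of CD8 T cells, rose by 0.68 on the log2 scale, from 404 ± 20.1 to 649 ± 8.54 FPKM (SD, n = 4 each; limma, adjusted p = 6.39e-08). *Ifnar1*, a chain of the type I interferon receptor, *Irf1* and *Jak1* fell by 0.37, 0.18 and 0.16 on the log2 scale (limma, adjusted p at most 0.00178).

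Type I and type III interferon genes, the products of sensor signalling, were at or close to 0. Of 19 such genes in the table, 11 were at 0 in every library, and *Ifna4* in DADA 2, at 1.096 FPKM, was the sole value to reach 1 FPKM. *Ifnb1* was listed at 0 in all DMSO libraries, and the DADA libraries had 0.536, 0.412, 0.326 and 0.133 FPKM. *Ifna4* was at 0 in all DMSO libraries as well, with 0.421, 1.096, 0.803 and 0.842 FPKM with DADA, and *Ifna2* had 0.676, 0.867, 0.310 and 0.557 FPKM with DADA after 0 in every control. Values above 0 were thus found in all DADA libraries for these 3 genes and in no DMSO library. Summed over the 19 genes, FPKM was 0.0665, 0, 0 and 0 with DMSO and 2.01, 2.94, 1.59 and 1.87 with DADA (two-sided exact permutation test, p = 0.0286). That p is the smallest that 4 against 4 libraries allow. It adds nothing to the single genes, since the separation of the sums follows from the values listed. The *Ifna* genes are near-identical copies among which reads may have been divided, so their single values are uncertain. The exact depth behind such low values is unknown.

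**Figure D5:**
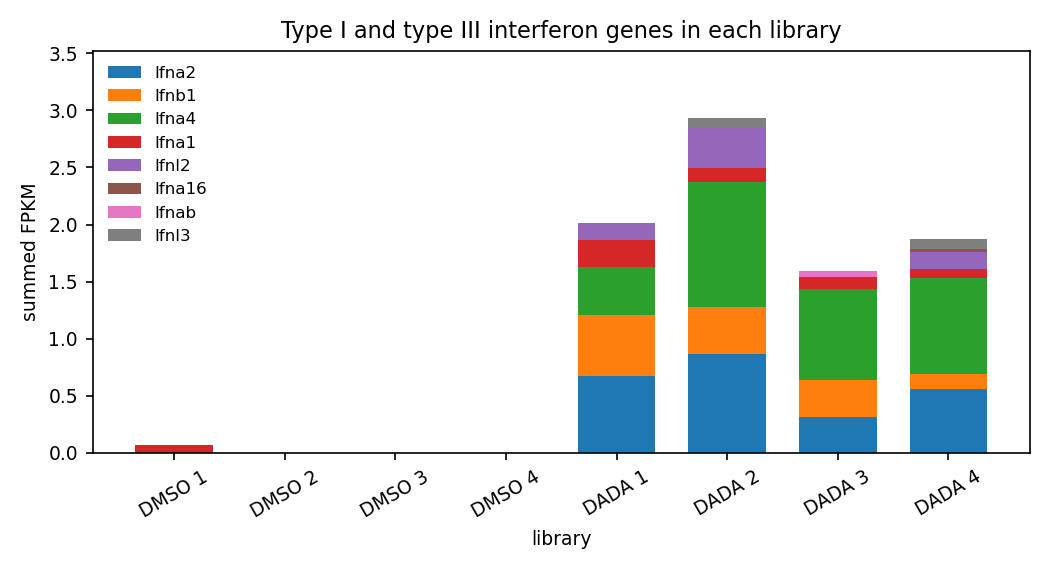
Summed FPKM of the 19 type I and type III interferon genes in each library, with colours for the 8 genes that were above 0 in any library. The DADA libraries reach 1.59 to 2.94 FPKM, and of the DMSO libraries 1 is above 0, at 0.0665 FPKM.

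Among the genes outside the 10 with a mean of 5 FPKM or more, those whose pattern over the 8 libraries was most like that of *Rigi*, *Ifih1* and *Dhx58* were *Emilin2*, *Bhlhe40*, *Irf7*, *Kbtbd11* and *Egln1*, with Pearson correlations with the mean of their standardised log2 values between 0.9997 and 0.9998. Such values were common, as 449 of 8125 genes compared had a correlation above 0.99, because the difference between the 2 groups enters each of them. For the deviations from the group means, the correlations were 0.722 for *Emilin2*, 0.758 for *Bhlhe40*, 0.620 for *Irf7*, 0.601 for *Kbtbd11* and 0.675 for *Egln1*. They are not independent of the ranking, because the deviations also enter the correlation by which these genes were picked. The same values were not obtained for the other genes compared.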

How the data were processed

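RNA of 4 DMSO-treated and 4 DADA-treated cultures was sequenced as mRNA libraries. The deposited table holds FPKM values that the authors computed for each gene and library, and every column of the table was assigned to a library by its title (0 columns unassigned). The submitters' processing notes name HISAT2 2.0.5, StringTie 1.3.3, SAMtools 0.1.18 and the builds GRCm39 and GRCh38, without their roles, and the strand setting of the counting is not given in the sources used here. The exact depth of each library could not be recovered from the values. At the best-fitting depth tried for each library, 39% to 48.4% of low values, over 4431 genes with a single transcript, lay within 0.1 of a whole fragment number. Chance gives 20% at a fixed depth and more where the best of many depths is kept, so this share does not establish a depth.

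The FPKM values were analysed as log2(FPKM + 1) with limma 3.58.1 (R 4.3.3; lmFit with treatment as the term, trended eBayes, Benjamini-Hochberg adjustment over all 10666 genes tested), after a filter of 1 FPKM in at least 4 of 8 libraries. The fit was tested on simulated data with independent noise and a small share of changed genes. That setting does not check calls where 66.2% of genes are called, or effects shared by cultures. Ratios and sums were tested with two-sided exact permutation tests over 70 assignments (Python 3.11.15, scipy 1.17.1). The 10 genes, the surrounding lists and the markers were chosen with earlier results of these data known. Lists are described by counts and medians without a test, except for the sum of the 19 type I and type III interferon genes. All 10 genes were named, and of each list the 3 called genes with the largest change in each direction, plus the partners *Irf3*, *Irf7*, *Tbk1*, *Ifnb1*, *Ifng*, *Stat2*, *Irf9*, *Ripk3*, *Mlkl*, *Trex1*, *Unc93b1*, *Trim25* and *Eif2s1*, and a few genes that meet these criteria are not reported here by name. Other genes named, such as markers, receptors at 0 and overlapping genes, were named after their values were seen. Likeness was computed over genes averaging 5 FPKM or more. Promoter sequences came from RefSeq (GRCm38.p6) and gene overlaps from GENCODE M21, and no gene coordinates on the authors' build are given. Alternatives were a pseudocount of 0.1, no filter, a mean of at least 5 FPKM, TPM, median-ratio and quantile scaling, no trend, a replicate block and each library left out.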

Additional observations from a re-analysis of the deposited data

Results flagged for a closer look

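Of 28 groups of 4 libraries examined for a library far from the others, 2 held one, and chance gives about 1 in 20. Both were low values in the control library DMSO 2. *Zbp1* was at 13.6 FPKM there and at 16.3 to 16.9 FPKM in the other DMSO libraries, a gap of 0.83 of the group's whole range. Without DMSO 2 its log2 fold change was 1.58 (limma, adjusted p = 2.64e-09) in place of 1.65. *Tlr7* was at 0.239 FPKM in DMSO 2 and at 0.352 to 0.373 FPKM in the others, a gap of 0.842 of the range, and its log2 fold change without this library was 1.12 in place of 1.16.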

How the results depend on the processing

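Each of the 10 genes kept its direction and its call under all 17 settings, except that *Tlr7* was not tested at a mean of at least 5 FPKM. The smallest changes were 0.10 to 0.15 for *Sting1* (limma, highest adjusted p 0.0193), -0.24 to -0.20 for *Mavs* (0.00332) and -0.28 to -0.18 for *Cgas* (0.0186), and the log2 fold change of *Tlr7* was between 0.85 with quantile scaling and 2.27 with a pseudocount of 0.1. The median log2 fold change of the 10 genes, 1.37, was 1.72 with a pseudocount of 0.1, 1.68 after scaling to TPM and 1.57 at a mean of at least 5 FPKM, where 9 genes were left. Scaling to TPM raised the values of every library, so the constant added weighs less there. The median was 1.37 with median-ratio scaling and 1.32 with quantile scaling. Over the single libraries left out, the log2 ratios differed between the groups by 1.76 to 1.85 for *Rigi* to *Mavs*, 2.07 to 2.15 for *Ifih1* to *Mavs*, 0.82 to 0.91 for *Dhx58* to *Ifih1* and -0.37 to -0.29 for *Cgas* to *Sting1*. Their exact permutation p was then 0.0571, the smallest that 4 against 3 libraries allow. With the replicate number as a block, the same 4 differences were 1.796, 2.10, 0.86 and -0.33, and the exact p was 0.125, the smallest that 4 pairs allow, so these values say nothing about stability. No pairing by number was seen, as the correlation of deviations between same-numbered libraries was between -0.120 and 0.0953. Of 4 DMSO libraries, 0 correlated best with its own number. With so few libraries, this cannot exclude that same-numbered cultures came from the same mouse. In limma, the replicate block gave 6995 called genes in place of 7064 and left the 10 genes at 8 higher and 2 lower. Without counts, no limit of detection could be set for genes at 0.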
